A study of Mus musculus with 31 samples.

Results

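Sox9, Sox8 and Dmrt1 are 3 transcription factor genes of Sertoli cells, the supporting cells of the fetal testis, and their transcripts were followed in whole fetal mouse gonads with and without a normal complement of germ cells. All probe sets whose annotation names exactly 1 of these genes were taken, which gave 5 of the 45101 probe sets on the array and 3 of the 18194 genes that could be named. Sox9 on chromosome 11 has 3 probe sets (1451538_at, 1424950_at and 1433889_at), Sox8 on chromosome 17 has 1 (1435438_at) and Dmrt1 on chromosome 19 has 1 (1423582_at). Where a gene has several, the one with the highest mean over the 31 arrays, 1451538_at for Sox9, stands for the gene and the others are given beside it.

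The mutant embryos were homozygous for Wv, a point mutation of Kit that weakens the kinase of the receptor for stem cell factor and leaves gonads with few germ cells, and they were set against wild-type embryos. At 12, 14 and 16 dpc (days after mating), Wv/Wv testes gave 3, 2 and 3 arrays, wild-type testes 1, 3 and 3, Wv/Wv ovaries 2, 3 and 3, and wild-type ovaries 2, 3 and 3. Kit is altered in every cell of the mutant, not in germ cells alone. The sources used here do not give the strain, or whether an array holds 1 embryo or a pool. The labels name the arrays of a group biological replicates, so p-values here measure the spread between samples, part of which may be technical. All values are log2 signals, and differences are between group means with the standard error (SE) of the fit.

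In the XY gonad the SRY protein switches on Sox9, an HMG-box factor that starts Sertoli cell differentiation and then keeps itself active. Sox8, a close relative of Sox9 in the SoxE group, overlaps with it in function in these cells. Dmrt1 encodes a DM-domain factor that is made by Sertoli cells, by germ cells of both sexes and, early on, by somatic cells of the gonad, and in mouse fetal ovaries it takes part in the switching on of Stra8, the retinoic acid target that licenses meiosis.

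The stretch just upstream of a start site is shown for Sox8 and for Dhh, the desert hedgehog ligand of Sertoli cells, because Dhh is the gene whose group means ran closest to those of Sox9 on 1451538_at, though not on 1424950_at. Of the 3 factor genes Sox8 matched the RefSeq promoter table, and Sox9 and Dmrt1 did not. The sequences are from RefSeq, build GRCm38.p6, minus strand, 250 bases each, at chr17:25570687-25570936 for Sox8 and chr15:98898541-98898790 for Dhh, and capitals mark GC boxes, the letters GGGCGG or their reverse complement CCGCCC.
Sox8: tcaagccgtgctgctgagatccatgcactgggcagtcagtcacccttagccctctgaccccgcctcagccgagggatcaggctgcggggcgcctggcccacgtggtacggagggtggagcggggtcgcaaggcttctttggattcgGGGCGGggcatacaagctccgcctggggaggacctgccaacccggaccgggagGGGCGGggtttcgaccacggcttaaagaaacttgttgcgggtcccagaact
Dhh: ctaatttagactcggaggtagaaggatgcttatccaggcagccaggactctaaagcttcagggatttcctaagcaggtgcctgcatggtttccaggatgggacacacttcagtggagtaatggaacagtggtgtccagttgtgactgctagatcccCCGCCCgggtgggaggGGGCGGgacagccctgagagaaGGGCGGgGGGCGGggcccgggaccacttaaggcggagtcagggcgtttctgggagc
The Sox8 stretch holds 2 GC boxes and is 65.6% G or C, and the Dhh stretch holds 4 and is 59.6% G or C, beside a median of 52.4% over all promoters. A GC box on either strand occurred in 32.7% of 32851 promoters of this length. Of the Sertoli product genes described further on, 11 had a promoter here, and 6 of these genes had a GC box in at least 1 promoter. The first count is by promoter and the second by gene, so they are not like for like. Neither stretch holds, on either strand, the SOX core ACAAT (27.7% of promoters), the SOX variant ACAAAG (16.5%), the GATA letters AGATAA (9.99%) or TGATAA (7.94%), the NR5A1 letters AAGGTCA (4.08%) or a CCAAT box (33.8%). A missing match says only that these letters are not in this window.

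The sex labels stood up to transcripts of the sex chromosomes. Xist, the RNA of the inactive X, read 5.19 to 8.04 on the 15 testis arrays and 11.61 to 12.82 on the 16 ovary arrays, and the Y-linked Eif2s3y read 6.74 to 10.65 in testes and 3.30 to 4.20 in ovaries. The arrays came in a wide-spread kind (21 arrays, SD over all probe sets 2.33 to 2.39) and a narrow-spread kind (10 arrays, SD 1.77 to 2.18), whose Gapdh control signals differed between its 3′ and 5′ probe sets (3′ minus 5′) by 2.01 ± 0.19 on wide (SD, n = 21) and 0.70 ± 0.19 on narrow arrays (SD, n = 10). Among Wv/Wv gonads the narrow kind held testis array 2 and ovary arrays 2 and 3 of 14 dpc, and testis array 1 and ovary array 2 of 16 dpc. Among wild-type gonads it held ovary array 1 of 14 dpc, and testis array 1 and all 3 ovary arrays of 16 dpc. Results are therefore also given from a class-adjusted fit, with the array kind as a term and wild-type testis 16 dpc array 1, the array of lowest SD, left out. Values under 5.39, the 40th percentile of all signals, are called under the low limit, and a fold against a group lying wholly under it is given as at least the fold over the limit itself. In whole gonads, fewer cells of a type and less RNA per cell cannot be told apart.

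Sox9 was higher in testes than in ovaries in both genotypes, by 2.07-fold to 5.44-fold over the 6 comparisons of gonads of like age and genotype. On 1451538_at the Wv/Wv testes read 8.42, 7.87 and 7.60 at 12 dpc, 7.71 and 9.81 at 14 dpc and 9.09, 7.49 and 7.36 at 16 dpc, against 6.23 and 6.08, then 6.06, 7.32 and 6.40, then 5.79, 7.23 and 5.78 in Wv/Wv ovaries of these ages. Wild-type testes read 8.03 at 12 dpc, 7.73, 7.52 and 8.11 at 14 dpc and 7.91, 7.20 and 7.49 at 16 dpc, against 5.71 and 5.47, then 6.48, 5.19 and 5.54, then 6.74, 6.49 and 6.21 in wild-type ovaries. Within every age and genotype the lowest testis array lay above the highest ovary array, and over all arrays 14 of 15 testis arrays lay above every ovary array. The exception was wild-type testis 16 dpc array 2 at 7.20, beside 7.32 and 7.23 on narrow-spread Wv/Wv ovary arrays. Both testis arrays above 9 were narrow-spread as well.

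**Figure D1:**
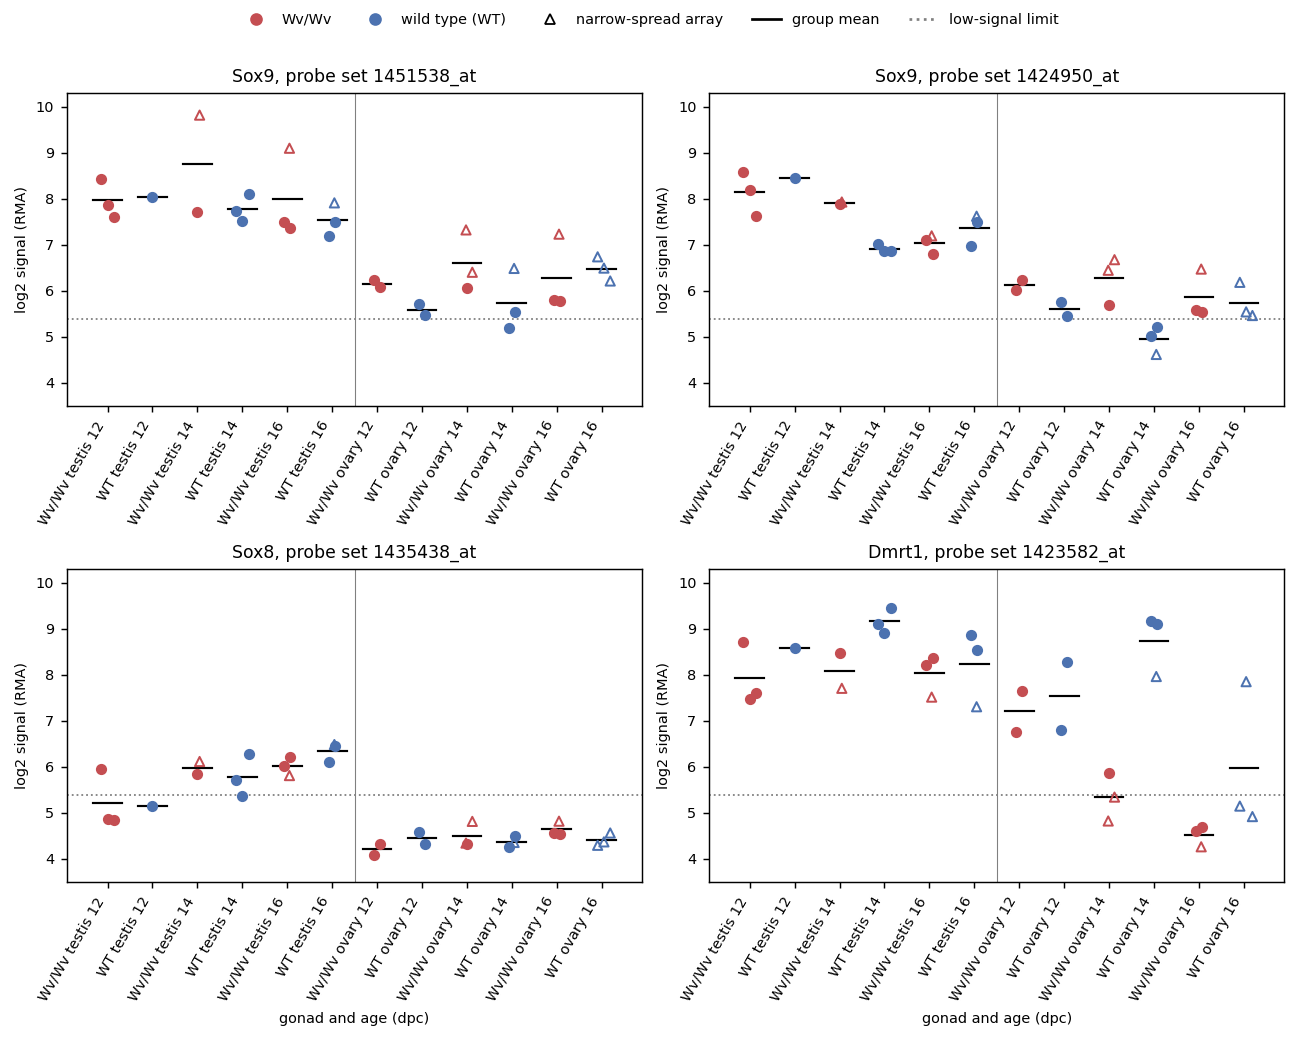
Log2 signal of each array (y axis) for the Sox9 probe sets 1451538_at and 1424950_at, Sox8 and Dmrt1 in the 12 groups (x axis), with filled circles for wide-spread arrays, open triangles for narrow-spread arrays, a bar at each group mean and a dotted line at the low limit of 5.39. Within each age and genotype testis arrays sit above ovary arrays for Sox9 and Sox8, whereas for Dmrt1 the wild-type ovaries at 14 dpc stand level with testes and the Wv/Wv ovaries at 16 dpc lie at 4.26 to 4.70.

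Fitted over all genes with limma, the Sox9 difference on this probe set passed an adjusted p of 0.05 in 3 of 6 sex comparisons. At 14 dpc it was 2.17 ± 0.56 in Wv/Wv (4.49-fold, adjusted p = 0.0253) and 2.05 ± 0.50 in wild type (4.13-fold, adjusted p = 0.0115), where 2.32% and 3.17% of all genes were called higher in testes. At 16 dpc it was 1.71 ± 0.50 in Wv/Wv (3.28-fold, adjusted p = 0.0353), where 3.79% were called higher, and 1.05 ± 0.50 in wild type (2.07-fold, adjusted p = 0.214), where 4.5% were. At 12 dpc it was 1.81 ± 0.56 in Wv/Wv (adjusted p = 0.352) and 2.44 ± 0.75 in wild type (adjusted p = 0.442), ages with 0.275% and 0.214% of genes called higher.

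The spread on this probe set moved with the kind of array. Narrow-spread arrays read 1.25 ± 0.16 higher than wide-spread arrays of their group on 1451538_at, at an adjusted p of 4.8e-07 in a fit in which 75.2% of 45101 probe sets were called. In the class-adjusted fit the testis minus ovary difference of Sox9 was called at all ages, at 1.81, 2.40 and 1.71 at 12, 14 and 16 dpc in Wv/Wv and 2.44, 2.51 and 2.25 in wild type, with SEs of 0.24 to 0.37 and adjusted p of 0.000525 or less. In wild type at 16 dpc, though, all ovary arrays are narrow-spread and the testis arrays kept in this fit are wide-spread. The 2.25 there therefore rests on the shift between kinds of array as estimated in other groups. The class-adjusted fit called more genes higher in testes as well, 1.4%, 9.6% and 10.4% in Wv/Wv and 0.929%, 7.76% and 7.98% in wild type. Without the array kind in the fit, the 14 dpc call in Wv/Wv was lost without Wv/Wv testis array 2 (1.12, adjusted p = 0.563), without Wv/Wv ovary array 1 (1.90, adjusted p = 0.0852) or without Wv/Wv ovary array 3 (2.07, adjusted p = 0.0917). The 14 dpc call in wild type was lost without wild-type ovary array 2 (1.77, adjusted p = 0.0824) or wild-type testis array 3 (1.89, adjusted p = 0.0669). The 16 dpc call in Wv/Wv was lost without Wv/Wv testis array 1 (1.16, adjusted p = 0.287), Wv/Wv ovary array 1 (1.48, adjusted p = 0.18) or Wv/Wv ovary array 3 (1.47, adjusted p = 0.182).

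The probe set 1424950_at of Sox9 moved less with the kind of array (0.34 ± 0.16, adjusted p = 0.0554) and separated the gonads fully. Its 15 testis arrays read 6.80 to 8.58 with a median of 7.48, and its 16 ovary arrays 4.62 to 6.67 with a median of 5.64, so that all testis arrays lay above all ovary arrays. The testis minus ovary difference was called in 6 of 6 comparisons, at 2.01 ± 0.32, 1.63 ± 0.32 and 1.17 ± 0.29 in Wv/Wv and 2.86 ± 0.43, 1.96 ± 0.29 and 1.63 ± 0.29 in wild type at 12, 14 and 16 dpc, with adjusted p between 5.52e-05 and 0.0105. The third probe set, 1433889_at, lay under the low limit on all 31 arrays, at 4.06 to 4.80 in testes and 3.48 to 3.94 in ovaries, which also do not overlap.

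**Figure D2:**
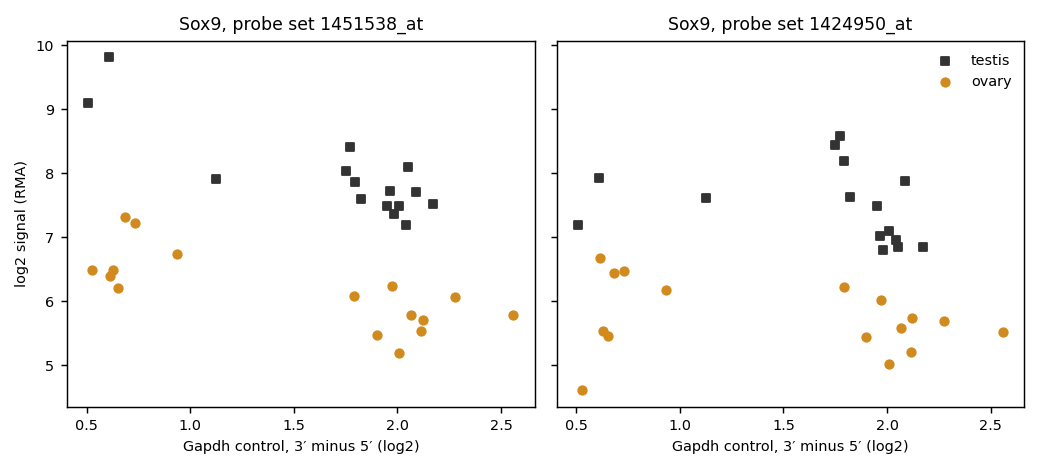
Log2 signal of Sox9 (y axis) on the probe sets 1451538_at and 1424950_at against the Gapdh control, 3′ minus 5′, of the same array (x axis, log2), with squares for the 15 testis arrays and circles for the 16 ovary arrays. On 1451538_at the narrow-spread arrays at the left read higher in both gonads, up to 9.81 in testes and 7.32 in ovaries, and on 1424950_at the gonads separate without overlap, at 6.80 to 8.58 and 4.62 to 6.67.

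Between Wv/Wv and wild-type testes no difference of Sox9 was called. On 1451538_at the difference of Wv/Wv and wild-type testes was −0.07 ± 0.71, 0.98 ± 0.56 and 0.45 ± 0.50 at 12, 14 and 16 dpc (adjusted p from 0.767 to 1), in comparisons where 0.033%, 0.594% and 0.484% of genes were called. The 14 dpc difference was −0.07 without Wv/Wv testis array 2, the narrow-spread array at 9.81, and with all arrays its 95% interval ran from −0.18 to 2.13. On 1424950_at, however, both Wv/Wv testes of 14 dpc, at 7.88 (wide-spread) and 7.93 (narrow-spread), lay above the wild-type testes at 7.02, 6.85 and 6.85. That difference was 0.99 ± 0.32, not called by limma over all probe sets (unadjusted p = 0.00504, adjusted p = 0.642). At 12 and 16 dpc it was −0.31 ± 0.40 and −0.32 ± 0.29.

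In ovaries, where Sox9 sits low, the probe sets parted at 14 dpc. On 1424950_at the Wv/Wv ovaries read 5.70, 6.44 and 6.67 at this age and the wild-type ovaries 4.62, 5.02 and 5.20, all 3 under the low limit. That difference, 1.32 ± 0.29, was called (adjusted p = 0.00624), while 4.37% of genes were called in either direction on the gene table. On 1451538_at it was 0.86 ± 0.50 (adjusted p = 0.4), and 0.39 ± 0.25 in the class-adjusted fit (adjusted p = 0.291). On 1424950_at the 2 higher of the Wv/Wv arrays were narrow-spread, but so was the lowest wild-type array. Mesonephros genes moved with this difference, with list means of 7.23, 7.05 and 7.07 in Wv/Wv ovaries and 6.57, 6.38 and 6.70 in wild-type ovaries, and 2 of 8 called higher beside 0.291% of all genes. Pax8, a factor of mesonephric tubules, read 7.61 to 7.71 in Wv/Wv and 5.70 to 6.39 in wild type. Their part in the Sox9 difference was not tested. At 12 and 16 dpc the ovaries of the genotypes differed by 0.57 ± 0.61 and −0.21 ± 0.50 on 1451538_at, neither called, with 0.0934% and 3.74% of genes called.

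With age, Sox9 changed in no called step between 12 and 14 or 14 and 16 dpc in any of the 4 kinds of gonad. Between 12 and 14 dpc 2.17% of all genes were called in Wv/Wv testes, 0.786% in wild-type testes, 1.54% in ovaries of Wv/Wv and 2.59% in those of wild type, and between 14 and 16 dpc 0.11%, 0.83%, 0.0989% and 0.357%. On 1424950_at the wild-type testis read 8.45 at 12 dpc on its single array, 7.02, 6.85 and 6.85 at 14 dpc and 7.62, 6.96 and 7.48 at 16 dpc. The 14 minus 12 dpc difference there was −1.54 ± 0.41 (adjusted p = 0.0884), against −0.25 ± 0.71 on 1451538_at. In Wv/Wv testes 1424950_at read 8.58, 8.19 and 7.63, then 7.88 and 7.93, then 7.19, 7.10 and 6.80, so that all 16 dpc arrays lay below all earlier ones, and the 16 minus 14 dpc difference was −0.87 ± 0.32 (unadjusted p = 0.0125, adjusted p = 1). Ordered by mean on 1451538_at, the 6 testis groups came first and the 6 ovary groups after them, and the arrays of each group overlapped those of the next group in the order.

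Sox8 was the most weakly measured of the 3 genes, and its mean was higher in testes than in ovaries at each age in both genotypes. Wv/Wv testes read 5.96, 4.87 and 4.84 at 12 dpc, 5.83 and 6.11 at 14 dpc and 5.81, 6.01 and 6.20 at 16 dpc, and wild-type testes read 5.14, then 5.71, 5.38 and 6.28, then 6.48, 6.11 and 6.45. Wv/Wv ovaries read 4.09 to 4.82 and wild-type ovaries 4.26 to 4.58. All 16 ovary arrays lay under the low limit of 5.39, as did 4 testis arrays, 3 of them from 12 dpc, and yet all 15 testis arrays lay above all 16 ovary arrays.

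The Sox8 difference between testes and ovaries was called at both later ages in both genotypes. At 14 dpc it was 1.48 ± 0.28 in Wv/Wv (at least 1.50-fold, adjusted p = 0.0017) and 1.42 ± 0.25 in wild type (at least 1.32-fold, adjusted p = 0.000492). At 16 dpc it was 1.36 ± 0.25 in Wv/Wv (at least 1.54-fold, adjusted p = 0.000662) and 1.94 ± 0.25 in wild type (at least 1.95-fold, adjusted p = 9.61e-06). These 4 calls held with any 1 array left out (highest adjusted p = 0.0499), but the one in Wv/Wv at 14 dpc did not with housekeeping centring (1.22, adjusted p = 0.104) or on wide-spread arrays alone (1.51, adjusted p = 0.0698). At 12 dpc it was 1.02 ± 0.28 in Wv/Wv (adjusted p = 0.194) and 0.69 ± 0.38 in wild type (adjusted p = 1), and the first of these was called in the class-adjusted fit (adjusted p = 0.0432). Sox8 moved little with the kind of array (0.11 ± 0.15, adjusted p = 0.525).

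Genotype left no called mark on Sox8, with Wv/Wv minus wild type at 0.08 ± 0.35, 0.19 ± 0.28 and −0.34 ± 0.25 in testes of 12, 14 and 16 dpc. In ovaries all values lay under the low limit, so no fold is given. The testis means went 5.22, 5.97 and 6.01 with age in Wv/Wv and 5.14, 5.79 and 6.35 in wild type. The step between 12 and 14 dpc in Wv/Wv was 0.75 ± 0.28 (adjusted p = 0.252) and became 1.12 ± 0.25 (adjusted p = 0.00924) without Wv/Wv testis 12 dpc array 1. That array read 8.42 for Sox9 against 7.87 and 7.60, and 5.96 for Sox8 against 4.87 and 4.84 on the other 12 dpc mutant testis arrays, and it also stood above them for Dhh (10.59 against 8.79 and 9.10) and for Ptgds, the prostaglandin D synthase of Sertoli cells (10.85 against 8.66 and 8.92). The mean of 8 measured mesonephros genes was 6.31 on it, 7.85 and 7.83 on the others and 6.41 on the wild-type testis array of this age, and its part in the result was not tested.

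**Figure D3:**
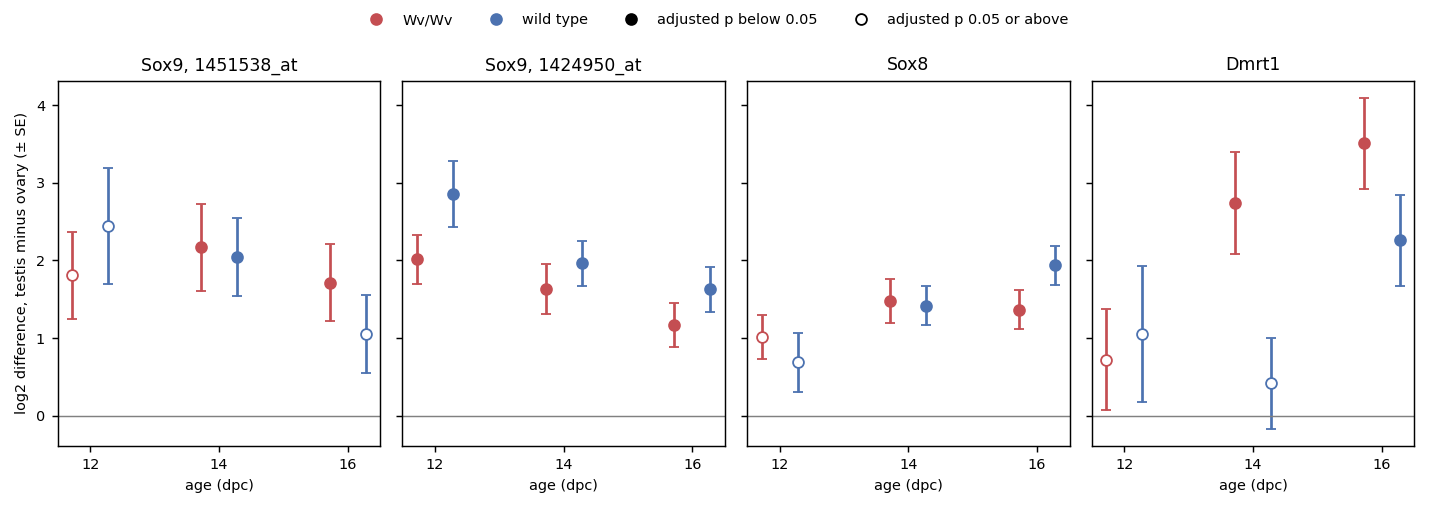
Testis minus ovary difference (y axis, log2, with its SE) at 12, 14 and 16 dpc (x axis) in Wv/Wv (red) and wild type (blue), for both measured Sox9 probe sets, Sox8 and Dmrt1, with filled circles where the adjusted p is below 0.05. Sox9 on 1424950_at is called at all ages, Sox8 at 14 and 16 dpc, and for Dmrt1 the 14 dpc difference is 2.74 in Wv/Wv and 0.42 in wild type.

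Dmrt1 was abundant in testes of both genotypes and, unlike the Sox genes, also in wild-type ovaries up to 14 dpc, the age at which it was lower in the germ-cell-poor mutant ovary. In testes the Wv/Wv arrays read 8.70, 7.48 and 7.60 at 12 dpc, 8.46 and 7.70 at 14 dpc and 7.51, 8.22 and 8.35 at 16 dpc, against 8.59, then 9.11, 8.91 and 9.46, then 7.30, 8.87 and 8.53 in wild type. In ovaries the Wv/Wv arrays read 6.76 and 7.64, then 5.87, 4.82 and 5.34, then 4.60, 4.26 and 4.70, against 6.80 and 8.27, then 7.96, 9.17 and 9.10, then 5.15, 7.85 and 4.92 in wild type. Mutant and wild-type ovaries overlapped at 12 dpc and were apart at 14 and 16 dpc, whereas mutant and wild-type testes overlapped at 12 and 16 dpc. Narrow-spread arrays read lower here, by −0.88 ± 0.31 (adjusted p = 0.0129).

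In Wv/Wv ovaries at 14 dpc Dmrt1 fell by 3.40 ± 0.59 relative to wild type (10.6-fold, adjusted p = 0.000613), with 4.08% of genes called lower, and the class-adjusted value was −3.14 ± 0.51 (adjusted p = 0.000112, 14.7% of genes called lower). Of the 3 Wv/Wv arrays there, 2 lay under the low limit, so the fold is approximate. At 16 dpc the difference was −1.45 ± 0.59 (at least 1.50-fold, adjusted p = 0.148), with 2.35% of genes called lower, and it was called in the class-adjusted fit at −1.97 ± 0.55 (adjusted p = 0.0168, 8.95% called lower). Without wild-type ovary array 2, the array at 7.85, the 16 dpc difference was −0.51 (adjusted p = 0.533). At 12 dpc it was −0.33 ± 0.72 (adjusted p = 1). In testes the differences were −0.66 ± 0.83, −1.07 ± 0.66 and −0.20 ± 0.59 at 12, 14 and 16 dpc, none called (adjusted p 0.848 or more). At 14 dpc the testis arrays of the genotypes did not overlap, but the interval of the difference ran from −2.43 to 0.28.

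Dazl, an RNA-binding protein of germ cells, serves as a rough guide to the germ cell content of the same arrays. Its level also moves with age, from 8.30 and 8.82 at 12 dpc to between 12.27 and 12.77 at 14 dpc in wild-type ovaries. On the 8 Wv/Wv testis arrays Dazl read 3.23 to 5.62 while Dmrt1 read 7.48 to 8.70, and on the 7 wild-type testis arrays Dazl read 8.24 to 11.79 while Dmrt1 read 7.30 to 9.46. In Wv/Wv ovaries Dazl read 3.49 and 3.80 at 12 dpc, when Dmrt1 read 6.76 and 7.64. At 14 dpc the Wv/Wv ovary array with the highest Dazl, 7.54 against 4.51 and 4.43, also had the highest Dmrt1, 5.87 against 4.82 and 5.34. Between the other 2 arrays the order of Dmrt1 was the reverse of that of Dazl. The array highest in both was the only wide-spread one of the 3, and narrow-spread arrays read lower for Dmrt1 (−0.88 ± 0.31). For Dmrt1, germ cell content and the kind of array cannot be told apart here. Germ cell signal in the mutants thus varied between arrays. The germ cell list has 17 measured genes, of which 16 and 10 passed the test as lower in Wv/Wv ovaries at 14 and 16 dpc, beside 4.08% and 2.35% of all genes, and 15 and 13 in Wv/Wv testes, beside 0.594% and 0.484%.

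**Figure D4:**
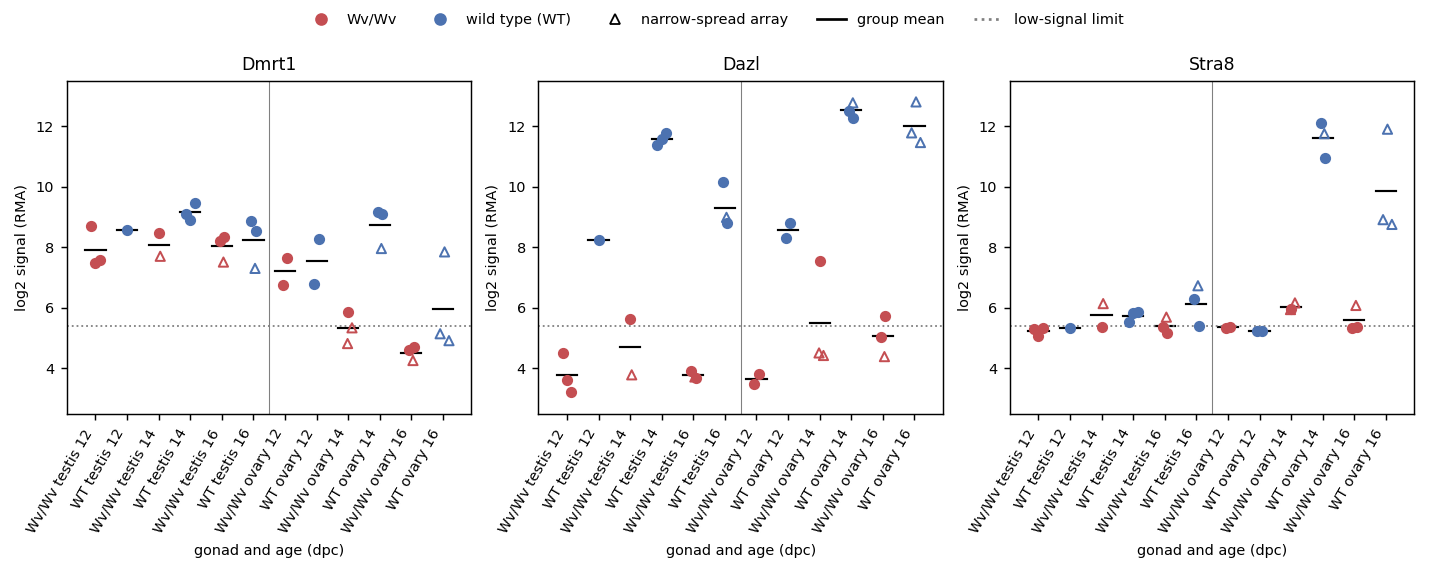
Log2 signal of Dmrt1, Dazl and Stra8 (y axes) on each array of the 12 groups (x axis), with symbols for the kind of array, bars at group means and a dotted line at 5.39. Dmrt1 stays at 7.48 to 8.70 in Wv/Wv testes where Dazl is at 3.23 to 5.62, and in wild-type ovaries at 16 dpc the array highest in Dmrt1 (7.85) is also highest in Stra8 (11.90).

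The signal that the mutant lacks was taken as the germ-cell-dependent share of Dmrt1. In ovaries that share was 20.7% at 12 dpc (95% interval −122 to 71.7) and 90.5% at 14 dpc (78.0 to 95.9). At 14 dpc 2 of the 3 Wv/Wv arrays, and their group mean of 5.34, lay under the low limit, so the 90.5% is approximate. At 16 dpc, where all 3 Wv/Wv arrays lay under the low limit, the share was at least 33.3%. This bound rests on wild-type ovary array 2, since the other wild-type arrays lay under the limit too. In testes it was 36.8% (−108 to 80.8), 52.5% (−21.6 to 81.5) and 13.2% (−101 to 62.6). Among these 5 intervals only that of the ovary at 14 dpc left out 0, and its share was 88.7% in the class-adjusted fit and between 88.6% and 92.8% with any 1 array left out. The intervals of ovary and testis overlapped at 14 dpc, and their difference is the interaction tested in the next paragraph, which was not called. The share counts any transcript lost with germ cells, in whichever cell it lay, and remaining germ cells in the mutant lower it.

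**Figure D5:**
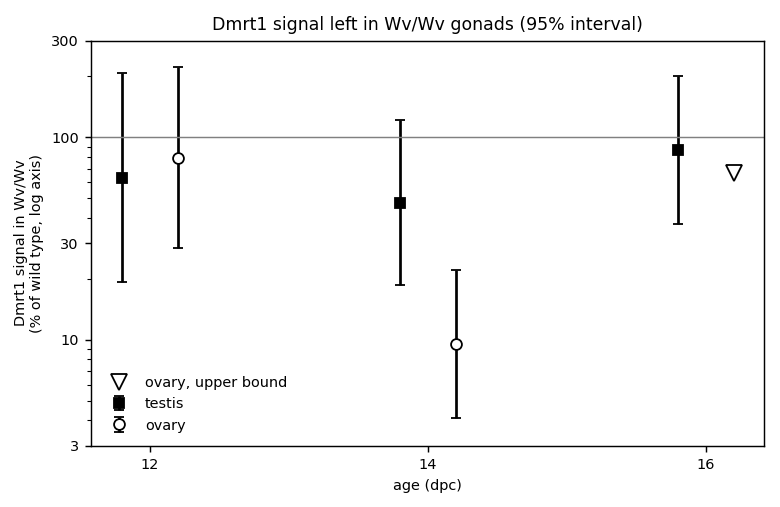
Dmrt1 signal left in Wv/Wv gonads as a percent of wild type (y axis, log scale) at 12, 14 and 16 dpc (x axis), with filled squares for testes, open circles for ovaries, bars for 95% intervals and an open triangle for an upper bound. In ovaries 9.48% was left at 14 dpc, with 2 of 3 Wv/Wv arrays under the low limit, and at most 66.7% at 16 dpc. In testes 47.5% and 86.8% were left, with intervals that include 100%.

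The sex difference of Dmrt1 passed the test in Wv/Wv at 14 and 16 dpc and in wild type at 16 dpc. At 14 dpc 2 of the 3 Wv/Wv ovary arrays, and at 16 dpc 2 of the 3 wild-type ovary arrays, lay under the low limit, so the folds given there are approximate. The wild-type arrays of testis and ovary overlapped at 16 dpc. All 3 of these ovary arrays were narrow-spread, as was 1 of the 3 testis arrays, and narrow-spread arrays read lower for Dmrt1 (−0.88 ± 0.31). In Wv/Wv the testis minus ovary difference was 0.72 ± 0.66 at 12 dpc (adjusted p = 1), 2.74 ± 0.66 at 14 dpc (6.68-fold, adjusted p = 0.0149) and 3.51 ± 0.59 at 16 dpc (at least 6.24-fold, adjusted p = 0.000226). In wild type it was 1.05 ± 0.88 (adjusted p = 1), 0.42 ± 0.59 (1.33-fold, adjusted p = 0.948) and 2.26 ± 0.59 (4.80-fold, adjusted p = 0.0139). The difference between genotypes in this sex difference, tested itself as an interaction, was 2.32 ± 0.88 at 14 dpc (unadjusted p = 0.0146, adjusted p = 1) and 1.25 ± 0.83 at 16 dpc (adjusted p = 0.759), so it was not called, in comparisons where 0.275% and 0.813% of genes were. In the class-adjusted fit the 14 dpc interaction was 2.45 ± 0.75 (adjusted p = 0.099, 1.93% of genes called). No interaction was called for Sox9 or Sox8 at 14 or 16 dpc, and at 12 dpc limma called 0% of genes, with 16 at an unadjusted p below 0.05.

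Leaving out single arrays ended some of these calls. At 14 dpc in Wv/Wv the call was lost without Wv/Wv testis array 1 (2.36, adjusted p = 0.244), Wv/Wv testis array 2 (3.12, adjusted p = 0.0502) or Wv/Wv ovary array 2 (2.48, adjusted p = 0.0722). At 16 dpc in wild type it was lost without ovary array 1 (1.85, adjusted p = 0.0896), ovary array 3 (1.74, adjusted p = 0.112), testis array 2 (1.95, adjusted p = 0.0674) or testis array 3 (2.11, adjusted p = 0.0521). The calls in Wv/Wv at 16 dpc and between the ovaries of the genotypes at 14 dpc held without any 1 array.

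With age, Dmrt1 fell between 14 and 16 dpc in wild-type ovaries, by 2.77 ± 0.59 (6.83-fold, adjusted p = 0.0323), a step in which 0.275% of genes were called lower. At 16 dpc 2 of the 3 arrays lay under the low limit, so the fold is approximate. The 3 arrays at 16 dpc were uneven: array 2 read 7.85 for Dmrt1 and 11.90 for Stra8, while arrays 1 and 3 read 5.15 and 4.92 for Dmrt1 and 8.91 and 8.76 for Stra8. Dazl stayed high on all 3, at 12.80 on array 2 and at 11.78 and 11.46 on arrays 1 and 3. In the other gonads no age step of Dmrt1 was called. Between 12 and 14 dpc its differences were −1.86 ± 0.66 in ovaries of Wv/Wv (adjusted p = 0.19) and 1.21 ± 0.66 in those of wild type (adjusted p = 0.616). The fall in wild-type ovaries was no longer called without 16 dpc array 1 (−2.36, adjusted p = 0.356), 16 dpc array 3 (−2.25, adjusted p = 0.293), 14 dpc array 2 (−2.56, adjusted p = 0.204) or 14 dpc array 3 (−2.60, adjusted p = 0.212), and the 16 dpc arrays are all narrow-spread while 2 of the 3 at 14 dpc are not.

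Most products of Sertoli cells were higher in testes in both genotypes at 14 and 16 dpc. Of 19 measured Sertoli products and effectors, 9, 13 and 14 were called higher in Wv/Wv testes at 12, 14 and 16 dpc, where 0.275%, 2.32% and 3.79% of all genes were. In wild-type testes 9, 14 and 14 were, beside 0.214%, 3.17% and 4.5% of all genes, and limma called 0 lower in the 6 comparisons, with 0 at an unadjusted p below 0.05. Their median difference at 14 and 16 dpc was 3.48 and 2.62 in Wv/Wv and 3.17 and 2.15 in wild type, where the median of all genes lay between −0.05 and 0.05. Cst9, a cystatin of Sertoli cells, was higher in testes by 5.64 ± 0.49 in Wv/Wv and 5.93 ± 0.43 in wild type at 14 dpc. Dhh was higher by 4.25 ± 0.42 and 4.62 ± 0.37. By limma 0 products were called between the genotypes in either gonad at any age, and at most 3 of 19 in a comparison had an unadjusted p below 0.05. In these comparisons 0.033% to 4.37% of all genes were called, so 0 of 19 lies near the share of all genes.

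Genes known to act above or beside Sox9 were compared between the sexes as well. Of 16 measured regulators and partners only Fgf9, a growth factor that sustains Sox9, was called higher in testes by limma. It was called at 12 dpc in Wv/Wv (1.73 ± 0.39, adjusted p = 0.0499) and at 14 dpc in wild type (1.27 ± 0.35, adjusted p = 0.0279). Of all genes 0.275% and 3.17% were called higher there. At 14 and 16 dpc 2.32% to 4.5% of all genes were called higher, so the counts of these ages lie near that share. In each of the 6 comparisons 1 to 3 of the 16 were higher, and 1 to 3 lower, at an unadjusted p below 0.05. Called lower in testes were 1 and 3 of the 16 in Wv/Wv at 14 and 16 dpc, beside 1.36% and 3.17% of all genes, and 1 and 2 in wild type, beside 2.76% and 5.14%. Fgfr2, the receptor that relays Fgf9, was called lower in testes in both genotypes at 14 and 16 dpc (−0.89 to −1.53). It was the only regulator called between the genotypes, higher in Wv/Wv ovaries at 14 dpc (0.78 ± 0.21) and 16 dpc (0.93 ± 0.21). In those comparisons 0.291% and 1.39% of all genes were called higher. Wt1, a zinc finger factor of the supporting lineage, was called lower at 16 dpc in Wv/Wv (−1.21 ± 0.28) and in wild type (−1.38 ± 0.28), and the histone demethylase gene Kdm3a in Wv/Wv at 16 dpc (−1.68 ± 0.37). The Sry probe set read 5.38 to 6.06 on testis arrays and 5.53 to 6.27 on ovary arrays, where the gene is absent, so it gives no measure of Sry.

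Of 20 genes of the ovarian pathway, which opposes Sox9, 11 and 13 were called lower in Wv/Wv testes at 14 and 16 dpc and 12 and 12 in wild-type testes, where 1.36%, 3.17%, 2.76% and 5.14% of all genes were. Only 1, Wnt5a, a signal of the stroma, was called higher in all 4. The lower genes included Fst, the activin antagonist follistatin, at −5.47 ± 0.40 and −5.76 ± 0.36 in Wv/Wv, and the granulosa factor Foxl2 at −2.64 ± 0.27 and −3.54 ± 0.24. None of the 20 was called between the genotypes except Wnt5a, which was higher in Wv/Wv ovaries at 16 dpc (1.23 ± 0.32, adjusted p = 0.0341), where 1.39% of genes were called higher. By limma 9 of the 20 were higher and 0 lower in Wv/Wv ovaries of this age at an unadjusted p below 0.05. Their median difference was 0.51, beside 0.03 for all genes. All wild-type ovary arrays of 16 dpc are narrow-spread, and the part of the kind of array in this was not tested.

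Sox9 is also a gene of cartilage, and the SoxE genes are used by neural crest and glia. By limma 0 of 10 cartilage genes were called between testes and ovaries, with at most 2 at an unadjusted p below 0.05 in a comparison. In these comparisons 0.214% to 4.5% of all genes were called higher in testes, so 0 of 10 lies near the share of all genes. The mean of the cartilage genes lay between 4.93 and 5.87 on all arrays, and 5 or 6 of the 10 lay under the low limit in each group. Sox10, the SoxE factor of neural crest, read 7.34 to 9.26 on testis arrays and 6.53 to 8.79 on ovary arrays and was not called in a sex comparison. Of 5 measured genes of neural crest and glia 1, the neuregulin receptor gene Erbb3, was called, higher in testes at 14 dpc in Wv/Wv (1.90 ± 0.48) and in wild type (1.53 ± 0.43). All 4 measured fetal Leydig cell genes were called higher in testes at 14 and 16 dpc in both genotypes. Of all genes 2.32% and 3.79% were called higher at these ages in Wv/Wv, and 3.17% and 4.5% in wild type. The Leydig list means were 11.13 to 12.85 in testes and 6.52 to 7.23 in ovaries. The part of these cells in the Sox9 and Sox8 signal was not tested.

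Likeness between genes was described by Pearson's r over the 12 group means, among 7844 genes whose group means span at least 1 log2 unit. Each group holds arrays of 1 sex, and the kinds of array are spread unevenly over the groups, so r is a description. The 5 genes most like Sox9 were Dhh (0.947), the Y-linked Uty (0.945), the potassium channel gene Kcnh1 (0.945), Tspan15 (0.939) and Sema4a (0.935). On 1424950_at they were Uty (0.933), Maff (0.929), Cbln4 (0.917), Ston1 (0.916) and Cnga1 (0.915), without Dhh. Those most like Sox8 were Foxs1 (0.972), Rnf207 (0.967), Trim47 (0.966), the inhibin alpha gene Inha (0.961) and Cgas (0.960). Those most like Dmrt1 were the centromere cohesion protector Sgo2a (0.964), the mitotic kinase gene Pbk (0.943), Ckap2 (0.940), Mthfd2 (0.938) and the kinesin gene Kif22 (0.933). Between the factors r was 0.829 for Sox9 and Sox8 (0.683 with 1424950_at), 0.439 for Sox9 and Dmrt1 and 0.512 for Sox8 and Dmrt1, and over the 21 wide-spread arrays it was 0.777, 0.454 and 0.525 in the same order.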

How the data were processed

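RNA of whole fetal gonads was extracted on spin columns and turned into biotinylated cRNA with a 3′ in vitro transcription kit, 1 sample per Affymetrix array, per the labels' protocols. The authors deposited log2 signals of 45101 probe sets, made with RMA per the submitters' processing notes; the sources used here give neither its version nor which arrays were normalised together. RMA equalises arrays, so a shift of total RNA does not show. Arrays have no read depth, and their number limits the precision.

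The platform annotation lists 35890 probe sets, 34958 of them with 1 gene symbol. The probe set of highest mean stood for each of 18194 genes. GRCm38.p6 gene and promoter tables served for names, chromosomes and sequences. A single model in limma 3.58.1 (R 4.3.3), with 1 mean for each of 12 groups, gave 25 contrasts with 19 residual and 3.999 prior degrees of freedom. Calls were made below 0.05 after Benjamini-Hochberg adjustment over all genes. The lone wild-type testis array of 12 dpc is assumed to vary like the other groups. Germ-cell-dependent shares are 100% minus the Wv/Wv signal as a percent of wild type, with the interval of the contrast, or a bound at the low limit where all mutant arrays lay under it. The test was checked on simulated data. The smallest SD of difference within the 27 pairs of arrays of a group was 0.179, so none were treated as duplicates.

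The genes, lists and comparisons were chosen with earlier results of these data known. Up to 4 called genes of a list with large changes, the 5 genes most like each factor, and a fixed set of markers are named. Alternatives were cyclic loess, centring on 11 housekeeping genes, the kind of array as a term (boundary at an SD of 2.2), this without wild-type testis 16 dpc array 1, the other Sox9 probe sets, all probe sets, a filter at the low limit, a trended robust prior, the replicate number as a block, each array left out, the low limit taken off, and, chosen after the data were seen, wide-spread arrays alone. Among comparisons with 3 same-numbered pairs of arrays, the deviations correlated over 0.1 in all pairs only for Wv/Wv against wild-type testes at 16 dpc (0.72, 0.602 and 0.657). In both of those groups array 1 is narrow-spread and arrays 2 and 3 are wide-spread, so pairing and the kind of array cannot be told apart. Both pairs also correlated over 0.1 for Wv/Wv testes against ovaries at 14 dpc and for the ovaries of the genotypes at 12 dpc. Tables were made with pandas 2.3.3, scipy 1.17.1 and numpy 2.4.6 under Python 3.11.15, and figures with matplotlib 3.10.9.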

Additional observations from a re-analysis of the deposited data

How the results depend on the processing

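Over 75 differences of the 3 genes, 1147 values were computed under the alternatives, 1087 on the same side of the threshold with no change of direction beyond the SE (78 of these changed sign within it). Sox9 (testis minus ovary) at 12 dpc was called in Wv/Wv with the kind of array as a term, with or without wild-type testis 16 dpc array 1 (1.81 both), on 1424950_at (2.01) and on wide-spread arrays alone (1.81), and in wild type at 2.44, 2.44, 2.86 and 2.44. In wild type at 16 dpc it was called at 1.88 and 2.25 with the kind as a term, 1.63 on 1424950_at and 0.71 on 1433889_at. The 2.25 sets wide-spread testis arrays against narrow-spread ovary arrays. Housekeeping centring, which shifted all sex differences by −0.27 to −0.02 and genotype differences by −0.40 to 0.16, ended the calls of Sox9 in Wv/Wv at 14 dpc (1.90) and 16 dpc (1.58) and in wild type at 14 dpc (1.87), and of Sox8 in Wv/Wv at 14 dpc (1.22). Sox8 there was also not called on wide-spread arrays alone (1.51), and was called at 12 dpc in Wv/Wv with the kind as a term without that array (1.02). Sox9 in Wv/Wv at 16 dpc was not called with cyclic loess (1.73) or on 1433889_at (0.54). With the replicate number as a block, Sox9 in Wv/Wv at 14 dpc was 2.05 (adjusted p = 0.0509), and no other call of the 3 genes changed. Over 26 pairs the deviations correlated from −0.818 to 0.847, and 10 were over 0.1. These correlations were not separated from the kind of array, so the numbers are not taken as a pairing. Sox9 in Wv/Wv against wild type was −0.0745 in testes at 14 dpc on wide-spread arrays alone, and 1.32 and called in ovaries at 14 dpc on 1424950_at. Its 14 minus 12 dpc difference in Wv/Wv testes changed sign on 1424950_at (−0.23) and on wide-spread arrays alone (−0.25). Its 16 minus 14 dpc difference in wild-type ovaries changed sign with the kind as a term (−0.09 and −0.19) and on 1433889_at (−0.0462), and the age by genotype interaction in ovaries with the kind as a term (0.18 and 0.32). Dmrt1 in Wv/Wv against wild-type ovaries at 16 dpc was called with loess (−1.67), housekeeping centring (−1.75) and the kind as a term (−2.04 and −1.97). Its fall in wild-type ovaries after 14 dpc was not called with housekeeping centring (−2.51) or the kind as a term alone (−2.18), and its 14 minus 12 dpc difference there was called on wide-spread arrays alone (1.60). Leaving out each array gave 1.12 to 3.22, 1.16 to 2.2 and 1.77 to 2.42 for the called Sox9 sex differences, −0.0745 to 2.03 for Sox9 in Wv/Wv against wild-type testes at 14 dpc, and 2.36 to 3.12 and 1.74 to 3.20 for Dmrt1 in Wv/Wv at 14 dpc and wild type at 16 dpc. Sox9 in Wv/Wv testes then ran from −0.25 to 1.85 for the step to 14 dpc and from −1.83 to 0.27 for the step to 16 dpc. The filter at the low limit dropped Sox8. Taking the limit off as background set the Dmrt1 share of ovaries at 14 and 16 dpc to 100% by construction, since the Wv/Wv means lie under it. Causes were not tested.

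Counts of genes called moved with the settings. Over those other than leaving out 1 array in turn, testis against ovary gave 60 to 649 (68 as reported), 596 to 2682 (671) and 1168 to 3756 (1266) genes in Wv/Wv at 12, 14 and 16 dpc, and 33 to 245 (46), 927 to 3804 (1079) and 1555 to 5751 (1755) in wild type. Wv/Wv against wild type gave 687 to 3743 (795) and 533 to 3004 (680) in ovaries and 72 to 172 (108) and 53 to 181 (88) in testes at 14 and 16 dpc. The share of calls higher in Wv/Wv testes was 63.0% and 54.4% at 14 and 16 dpc and 46.5% and 40% after housekeeping centring, in wild type at 14 dpc 53.4% and 42.0%. In Wv/Wv ovaries against wild type the share higher was 6.7% and 37.2%, and 29.3% and 50.5% with loess.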

Other observations

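Of the other DM-domain genes, Dmrta1 was called lower in testes in both genotypes, at −1.62 ± 0.44 and −2.74 ± 0.40 in Wv/Wv and −2.13 ± 0.40 and −2.36 ± 0.40 in wild type at 14 and 16 dpc, and it was not called between the genotypes. Dmrtc2 and Dmrta2 were called lower in Wv/Wv than in wild-type ovaries, Dmrtc2 by at least 3.17-fold at 14 dpc and 5.13-fold at 16 dpc and Dmrta2 by at least 4.66-fold and 2.16-fold. For both the sex difference itself depended on genotype at 14 dpc, with interactions of 3.39 ± 0.54 for Dmrtc2 (adjusted p = 0.00257) and 2.60 ± 0.54 for Dmrta2 (adjusted p = 0.0299). Of 8 measured DM-domain genes, 4 were called lower in wild-type testes at 14 dpc, where 2.76% of all genes were, and 4 lower in Wv/Wv ovaries at that age, where 4.08% were, and Dmrt1 was 1 of the 4 in ovaries.

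Of 20 measured Sox genes, 1 was called lower in Wv/Wv testes and 2 in Wv/Wv ovaries at 14 dpc, beside 0.594% and 4.08% of all genes. In ovaries at 16 dpc 1 was called lower, beside 2.35%. Sox2, a pluripotency factor, was among those called at 14 dpc, by at least 7.22-fold in testes and at least 11.1-fold in ovaries. Its means were 3.19 ± 0.13 in Wv/Wv testes (SD, n = 2) and 8.24 ± 0.51 in wild-type testes (SD, n = 3). In ovaries they were 3.45 ± 0.77 in the mutant and 8.86 ± 0.81 in wild type (SD, n = 3 each).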
